A study of Mus musculus with 15 samples.

Results

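The 10 genes described here build or mark the mineralised matrix of bone: Col1a1, Col1a2, Sparc, Spp1, Ibsp, Bglap, Omd, Alpl, Runx2 and Sp7. They were read by 15 of the 55681 probes of an Agilent mouse array, found by matching the accession of each probe to a gene symbol, which succeeded for 28026 probes and 21154 genes. The samples came from 15 male C57BL/6J mice, labelled as 9-week old, with 1 array a mouse. They formed 4 groups, G-Sham (4 mice housed on the ground without an operation), FLT-Sham (4 mice flown in space without an operation), G-Surgery (4 ground mice with a segmental bone defect, SBD, in the femur) and FLT-Surgery (3 flown mice with the same defect). The defect was made shortly before launch, held open by a polymer graft and treated with saline in a collagen sponge, and the mice were killed about a month later. The tissue is labelled as callus in all 4 groups, and for the unoperated mice it was the same midshaft region of an intact femur. The frozen piece was ground whole, so all cells in it were read together, and the study describes its RNA as of low quality, comparable between flown and ground mice. Each array held a mouse's RNA in Cy5 and a purchased reference in Cy3, a pool of RNA from 11 mouse cell lines, and dyes were never swapped.

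Osteoblasts make bone in steps. The transcription factors Runx2 and Sp7 (osterix) commit a cell to the lineage, the cell then secretes type I collagen, whose chains are encoded by Col1a1 and Col1a2, and the collagen is mineralised with the help of alkaline phosphatase (Alpl) and of acidic proteins bound in the matrix. Bone sialoprotein (Ibsp) and osteopontin (Spp1) are such proteins, encoded near each other on chromosome 5, osteocalcin (Bglap) is the late product of mature osteoblasts, osteonectin (Sparc) binds collagen and mineral, and osteomodulin (Omd) is a small leucine-rich proteoglycan of mineralised matrix. Type I collagen, Sparc and Spp1 are also made by other connective tissue cells and, for Spp1, by macrophages, whereas Ibsp and Bglap are more closely tied to bone.

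Sequence around the start site was held for 8 of the 10 genes, in 10 windows of 300 bases (250 before the start site and 50 from it on, RefSeq, GRCm38.p6). The 4 windows printed here are 1 each of Ibsp, Spp1, Bglap and Alpl, and the other windows held are not printed. Capitals mark 2 motifs searched on both strands, the Runx core hexamer TGTGGT, which reads ACCACA on the other strand, and the TATA box TATAAA, which reads TTTATA there. Ibsp lies at chr5:104299287-104311472 on the plus strand and its window at chr5:104299037-104299336, Spp1 lies downstream on the same chromosome and strand with its window at chr5:104434861-104435160, Bglap is on the minus strand with its window at chr3:88384417-88384716, and the Alpl window at chr4:137766426-137766725 on the minus strand is that of the downstream of its 2 annotated starts.
Ibsp: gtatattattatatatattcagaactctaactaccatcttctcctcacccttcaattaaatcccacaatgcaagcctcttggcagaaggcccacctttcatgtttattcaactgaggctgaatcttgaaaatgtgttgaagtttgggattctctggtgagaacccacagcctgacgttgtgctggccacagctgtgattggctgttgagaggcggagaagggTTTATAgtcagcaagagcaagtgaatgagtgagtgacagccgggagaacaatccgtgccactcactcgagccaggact
Spp1: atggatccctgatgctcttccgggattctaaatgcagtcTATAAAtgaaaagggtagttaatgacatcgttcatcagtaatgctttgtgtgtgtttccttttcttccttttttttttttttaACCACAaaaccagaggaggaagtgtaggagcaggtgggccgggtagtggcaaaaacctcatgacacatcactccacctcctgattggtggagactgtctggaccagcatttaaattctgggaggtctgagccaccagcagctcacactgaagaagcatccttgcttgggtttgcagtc
Bglap: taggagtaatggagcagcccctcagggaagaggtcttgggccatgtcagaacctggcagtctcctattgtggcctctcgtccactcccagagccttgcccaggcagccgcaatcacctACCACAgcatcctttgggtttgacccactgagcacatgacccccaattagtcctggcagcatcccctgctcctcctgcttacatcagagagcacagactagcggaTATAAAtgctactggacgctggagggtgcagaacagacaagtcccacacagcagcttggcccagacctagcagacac
Alpl: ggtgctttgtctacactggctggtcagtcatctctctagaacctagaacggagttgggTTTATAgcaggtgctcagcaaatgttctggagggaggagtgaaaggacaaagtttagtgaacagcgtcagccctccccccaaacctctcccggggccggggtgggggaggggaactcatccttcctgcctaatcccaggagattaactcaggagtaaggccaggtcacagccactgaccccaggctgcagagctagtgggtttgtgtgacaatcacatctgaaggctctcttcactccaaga
The Runx core hexamer stood at position -132 in the Bglap window and at position -128 in that of Spp1, counting the start site as 0. Windows of Sparc and Runx2 held it as well, so that 4 of the 8 genes had it in at least 1 window. By window it was 4 of 10, beside 16.8% of all 32851 windows of this length. The Ibsp, Alpl, Col1a2 and Omd windows did not hold these letters. A TATA box stood at position -28 in Ibsp and at position -27 in Bglap. The same letters stood farther off at position -211 in Spp1 and at position -192 in Alpl, and 13.6% of all windows held them. These matches are a description of the letters in the windows.

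The quantity used throughout is the log2 ratio of the sample (Cy5) to the reference (Cy3), so that a value of 0 is a signal equal to that of the reference. Levels of different probes are not compared with each other. A probe counts as above background on an array where the scanner software called its Cy5 signal well above background. Differences between groups were tested with limma, and the cut-off followed the study and asked for a 2-fold change together with an unadjusted p no higher than 0.01. The Benjamini-Hochberg adjusted p stands beside it. Between 22.4% and 38.5% of all probes were above background in Cy5, from 12869 to 18300 probes in G-Sham, 14813 to 21461 in FLT-Sham, 14309 to 20697 in G-Surgery and 12493 to 14260 in FLT-Surgery. Over all probes tested, the median log2 difference was 0.24 for FLT-Sham minus G-Sham, -0.20 for FLT-Surgery minus G-Surgery, 0.14 for G-Surgery minus G-Sham, -0.28 for FLT-Surgery minus FLT-Sham and -0.37 for the interaction, the flight effect after the defect minus that in sham mice. With a second loess within each array these medians became -0.13, 0.30, -0.09, 0.36 and 0.50. The share of probes past the cut-off that were higher in the first group changed with it from 89.6% to 64.9%, from 33.3% to 95.1%, from 80.3% to 56.4%, from 6.37% to 52.2% and, for values above 0 in the interaction, from 6.72% to 74.9%, so differences of the genes near these medians have no firm sign. Array-wide counts also rested on single arrays. Without FLT-Sham replicate 8, which had 14813 probes above background beside 19424 to 21461 in the other FLT-Sham mice, the probes at an adjusted p of 0.05 or less went from 0 to 594 for FLT-Sham against G-Sham, from 16 to 6141 for FLT-Surgery against FLT-Sham and from 0 to 3062 for the interaction, and the probes past the cut-off from 394 to 2071, from 1272 to 4911 and from 1160 to 3772. Without FLT-Surgery replicate 1 these probes went from 0 to 1348 for FLT-Surgery against G-Surgery, from 16 to 773 for FLT-Surgery against FLT-Sham and from 0 to 637 for the interaction, and the probes past the cut-off from 519 to 2052, from 1272 to 2466 and from 1160 to 2238. The arrays lay on 3 slides, and this was the only FLT-Surgery array on its slide, which also held 3 FLT-Sham arrays. Its omission leaves FLT-Surgery on 1 slide, so mouse and slide cannot be told apart.

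Detection divided the 10 genes. Col1a1, Col1a2, Sparc and Spp1 were above background on all 15 arrays by their brightest probe. Ibsp was above background on 13 arrays by its brighter probe and on 14 by the other. Bglap was above background on 8 arrays, Alpl on 7, Runx2 on 6 by the brightest of its 3 probes and Omd on 2, both of them FLT-Sham. Sp7 was not above background on any array, so the factor that acts after Runx2 in the lineage was not measurable here. No probe of these genes was saturated.

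**Figure D1:**
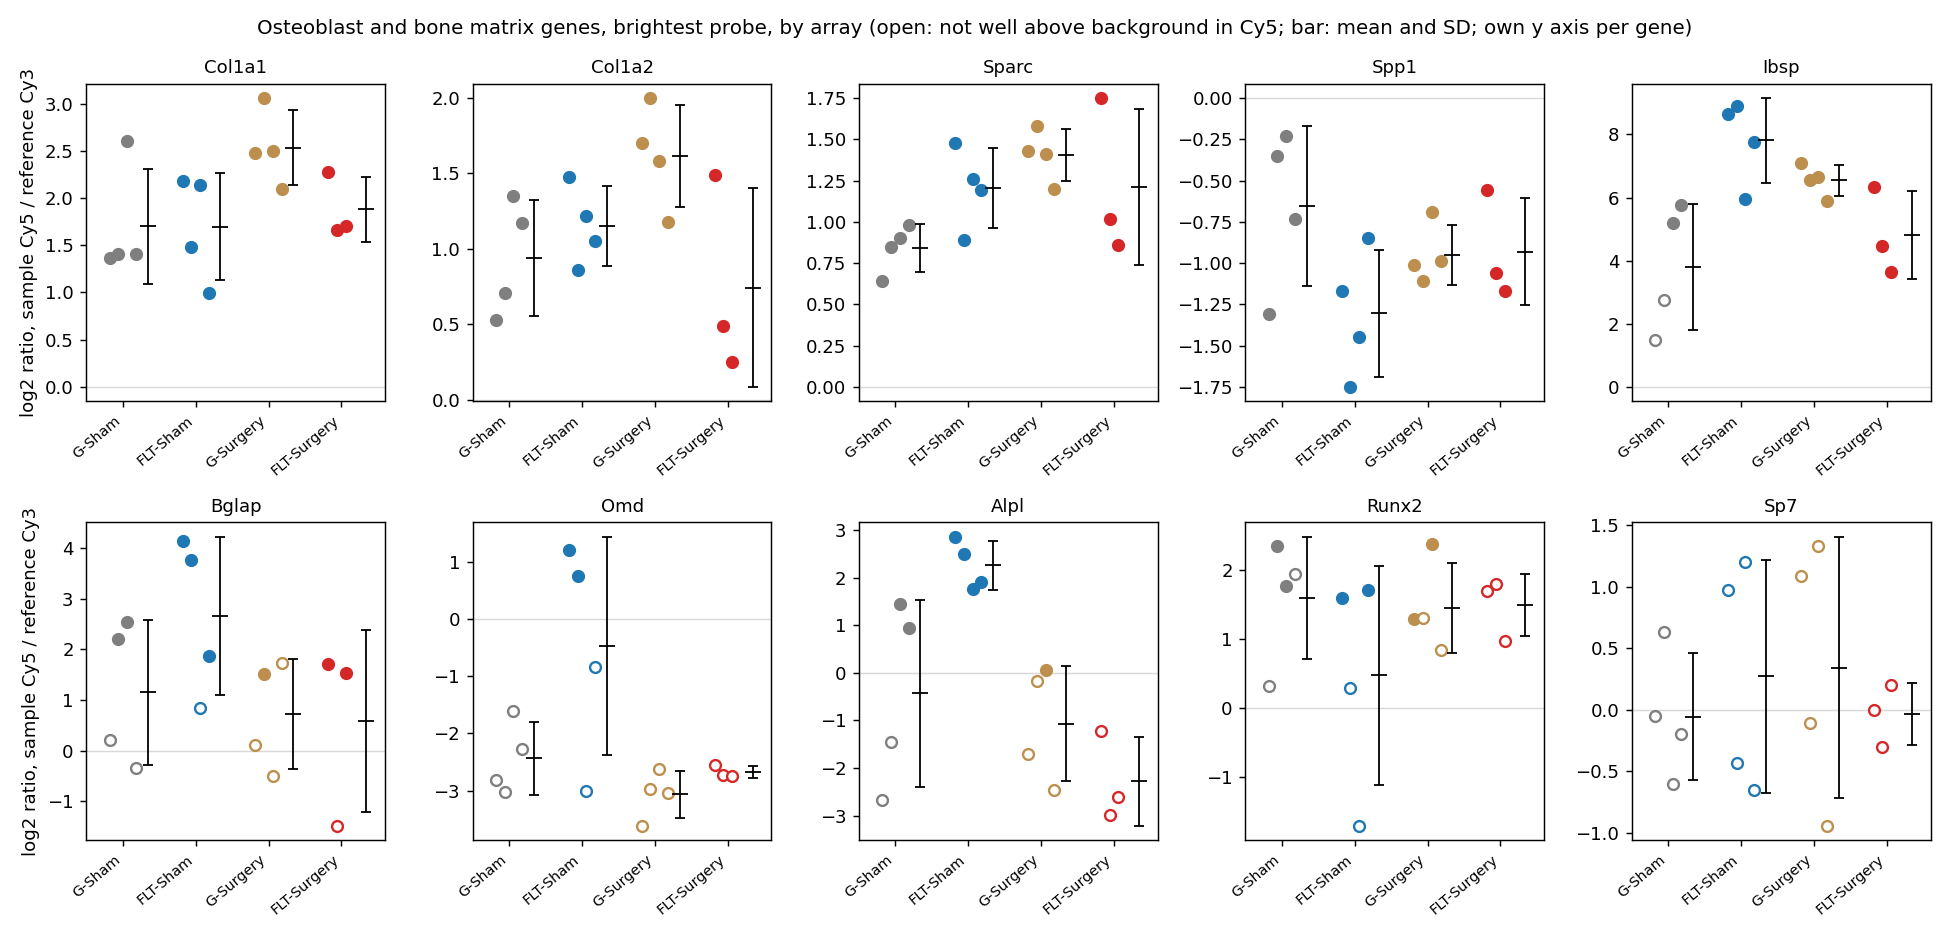
Log2 ratio of sample (Cy5) to reference (Cy3) on the y axis for the brightest probe of each of the 10 genes, by group on the x axis, 1 point per array, filled where the probe was above background in Cy5, with the mean and SD as a bar and a separate y axis for each gene. Ibsp and Alpl separate FLT-Sham from G-Sham, the 3 FLT-Surgery points of Alpl are all open, and Sp7 has only open points.

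Among the collagen genes, Col1a1 was higher than the reference on every array and Col1a2 likewise. The Col1a1 log2 ratios were 1.37, 1.41, 2.61 and 1.41 in G-Sham (replicates 1, 3, 4 and 5), 2.18, 1.48, 2.14 and 0.99 in FLT-Sham (replicates 4, 6, 8 and 9), 2.48, 3.06, 2.50 and 2.10 in G-Surgery (replicates 1, 3, 4 and 5), and 2.28, 1.66 and 1.70 in FLT-Surgery (replicates 1, 3 and 5). Both sham groups averaged 1.70, with SDs of 0.61 and 0.57 (n = 4 each), and G-Sham replicate 4 stood well above its group. G-Surgery had the highest mean, 2.54 ± 0.40 (SD, n = 4), and FLT-Surgery read 1.88 ± 0.34 (SD, n = 3), yet every pair of groups overlapped. Col1a2, the other chain, averaged 0.94 ± 0.39 in G-Sham, 1.15 ± 0.26 in FLT-Sham, 1.62 ± 0.34 in G-Surgery and 0.74 ± 0.66 in FLT-Surgery. Its FLT-Surgery values were 1.49, 0.49 and 0.25, so replicate 1 lay in the range of G-Surgery and the other 2 lay below the lowest sham value of 0.53.

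Neither collagen chain passed the cut-off in any comparison in the main setting, with the deposited ratios, all arrays of the comparison and no block. Defect against no defect on the ground gave 0.84 for Col1a1 (SE 0.36, limma adjusted p = 0.456) and 0.68 for Col1a2 (SE 0.29, adjusted p = 0.453). Flight against ground after the defect gave -0.66 for Col1a1 (SE 0.32, adjusted p = 0.338) and -0.88 for Col1a2 (SE 0.38, adjusted p = 0.305). Without FLT-Surgery replicate 1 the Col1a2 difference was -1.25 and passed the cut-off (adjusted p = 0.0539), and without G-Sham replicate 4 the Col1a1 difference between the ground groups was 1.14 and passed it (adjusted p = 0.463). Between the ground groups Col1a2 also passed with normexp background correction (1.01, unadjusted p = 0.00474, limma adjusted p = 0.289) and Col1a1 with slide as a block (1.29, unadjusted p = 0.00615, adjusted p = 0.808). Within slide, G-Surgery minus G-Sham was 0.95 and 1.67 for Col1a1 and 0.78 and 1.15 for Col1a2 on the 2 slides that held both groups.

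Over the 15 arrays the genes whose probe followed Col1a1 most closely, among 8294 probes above background throughout, were Col3a1 (Pearson r = 0.832), Serpinh1 (r = 0.828), Man2b1 (r = 0.808), Col6a2 (r = 0.781) and Rcn1 (r = 0.778). Col3a1 encodes type III collagen, Serpinh1 the collagen chaperone HSP47 and Col6a2 a chain of type VI collagen. Among the 10 genes themselves the highest values were 0.80 for Col1a2 with Sparc and 0.77 for Col1a1 with Col1a2. To Bglap, above background on 8 arrays, the nearest were Ifngr2 (r = 0.811), Rpl24 (r = 0.803), H2-Q7 (r = 0.8), E4f1 (r = 0.788) and Gm5069 (r = 0.781). The points of these correlations share arrays and reference, and the values describe likeness of pattern only.

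Sparc, the collagen-binding glycoprotein osteonectin, lay above the reference on every array by its brightest probe. G-Sham read 0.64, 0.85, 0.90 and 0.98, FLT-Sham 1.48, 0.89, 1.26 and 1.19, G-Surgery 1.43, 1.58, 1.41 and 1.20, and FLT-Surgery 1.75, 1.02 and 0.86. All G-Surgery arrays lay above all G-Sham arrays, with a difference of 0.56 (SE 0.22, limma adjusted p = 0.411), and no comparison passed the cut-off. By the Cy5 signal alone these groups overlapped, at this probe and at the next. The next probe of Sparc gave 1.75 for the same comparison (SE 0.64, adjusted p = 0.385), also without overlap, and -1.98 for FLT-Surgery minus G-Surgery (SE 0.73, adjusted p = 0.284). The brightest and the next probe correlated at r = 0.76, while the third was above background on 1 array only.

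Spp1 was the abundant gene that lay below the reference on every array, between -1.75 and -0.23. Group means were -0.65 ± 0.49 in G-Sham, -1.31 ± 0.39 in FLT-Sham, -0.95 ± 0.18 in G-Surgery and -0.93 ± 0.33 in FLT-Surgery. The groups overlapped throughout. The difference farthest from 0, FLT-Sham minus G-Sham, was -0.65 (SE 0.37, limma adjusted p = 0.524).

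Ibsp showed the widest range of the secreted matrix proteins. Its brighter probe read 1.50, 2.76, 5.19 and 5.75 in G-Sham, the first 2 of them below background, and 8.65, 8.91, 5.95 and 7.75 in FLT-Sham. G-Surgery read 7.10, 6.56, 6.64 and 5.90, and FLT-Surgery read 6.35, 4.47 and 3.64. Every flown sham mouse and every ground mouse with a defect therefore read higher than every ground sham mouse, while FLT-Surgery lay between, overlapping G-Sham, G-Surgery and FLT-Sham alike. By the Cy5 signal alone FLT-Sham still stood clear of G-Sham at this probe, and G-Surgery overlapped it.

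The dimmer Ibsp probe also put G-Sham lowest. It read 2.43, 0.86, 1.99 and 2.40 in G-Sham, 4.96, 4.08, 4.48 and 3.57 in FLT-Sham, 7.01, 4.68, 5.20 and 3.19 in G-Surgery, and 3.85, 4.45 and 4.64 in FLT-Surgery. G-Sham stood below each other group without overlap, and those groups overlapped one another. The 2 probes correlated at r = 0.53 over the arrays.

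FLT-Sham exceeded G-Sham by 4.02 at the brighter Ibsp probe (SE 1.04, unadjusted p = 0.00401, limma adjusted p = 0.424) and by 2.35 at the dimmer one (SE 0.47, unadjusted p = 0.000803, adjusted p = 0.346), both past the cut-off. Among the bone genes 8 could be tested here, and Ibsp alone passed, beside 2% of all 19739 probes tested and 1.79% of them higher, and Ibsp and Alpl were the 2 whose groups did not overlap, both with FLT-Sham above, as for 3.64% of probes. No probe of the array reached an adjusted p of 0.05 here under limma, against 1890 (9.57%) at an unadjusted p of 0.05, though 594 did without FLT-Sham replicate 8. Without G-Sham replicate 3, FLT-Sham replicate 4 or FLT-Sham replicate 6 the brighter probe gave 3.67, 3.74 and 3.65 and missed the cut-off, at unadjusted p = 0.0143, 0.012 and 0.0129, whereas the dimmer probe stayed past it. The dimmer probe missed it with a second loess (1.59, adjusted p = 0.557) and both missed it by the Cy5 signal alone, at 2.68 (limma adjusted p = 0.423) for the brighter and 1.55 (adjusted p = 0.423) for the dimmer. With normexp background correction both passed at smaller differences, 2.08 and 1.10 (limma adjusted p = 0.435 each). Within slide the brighter probe differed by 5.89 and 3.91 and the dimmer one by 4.10 and 1.63.

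The defect on the ground gave 2.75 at the brighter Ibsp probe (SE 0.89, unadjusted p = 0.0134, limma adjusted p = 0.362) and 3.10 at the dimmer one, which passed the cut-off (SE 0.75, unadjusted p = 0.00293, adjusted p = 0.28). By the brightest probe none of the 8 genes tested passed it under limma, beside 2.59% of probes past the cut-off. The brighter probe passed it without G-Sham replicate 4 (3.21) or replicate 5 (3.40), and the dimmer one missed it without G-Sham replicate 3 (2.74, adjusted p = 0.297). With slide as a block the values were 3.39 and 3.33, both at unadjusted p above 0.01 (0.0186 and 0.0153). The dimmer probe also missed the cut-off with a second loess (2.69, limma adjusted p = 0.397) and with normexp (1.52, adjusted p = 0.426), where the brighter probe read 1.25.

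FLT-Surgery read lower at the brighter Ibsp probe, by -1.73 against G-Surgery (SE 0.63, limma adjusted p = 0.284) and by -3.0 against FLT-Sham (SE 0.89, adjusted p = 0.15), neither past the cut-off. The dimmer probe gave -0.70 (SE 0.80, adjusted p = 0.662) and 0.04 (SE 0.44, adjusted p = 0.956) for the same comparisons, so the 2 probes did not show the same difference. Without FLT-Surgery replicate 1 the brighter probe gave -2.50 against G-Surgery (adjusted p = 0.0227) and -3.76 against FLT-Sham (adjusted p = 0.0578), and without FLT-Sham replicate 8 it gave -3.62 against FLT-Sham (adjusted p = 0.0139), each past the cut-off. Omitting FLT-Surgery replicate 1 leaves that group on 1 slide, so mouse and slide cannot be told apart there. The flight effect after the defect minus that in sham mice, tested as an interaction over all 15 arrays, was -5.75 at the brighter probe (SE 1.35, unadjusted p = 0.000813, adjusted p = 0.167) and -3.06 at the dimmer one (SE 0.95, unadjusted p = 0.00646, adjusted p = 0.176), both past the cut-off. The brighter probe stayed past it without any 1 of the 15 arrays, from -6.51 to -4.98, and the dimmer one missed it without G-Sham replicate 3 (-2.70) or 4 (-3.08), FLT-Sham replicate 4 (-2.83) or 8 (-2.99), G-Surgery replicate 4 (-3.0), or FLT-Surgery replicate 1 (-2.83) or 3 (-3.13). In the other settings the brighter probe passed in 7 of 7, from -6.36 to -3.24, the latter with normexp. The dimmer one passed in 3 of 7 and missed the cut-off with a second loess (-1.23), with normexp (-1.94), by Cy5 alone (-1.85) and with slide as a block (-3.08). The interaction for Col1a2 was -1.09 (SE 0.49, adjusted p = 0.243), and -1.46 and past the cut-off without FLT-Surgery replicate 1 (adjusted p = 0.0816).

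**Figure D2:**
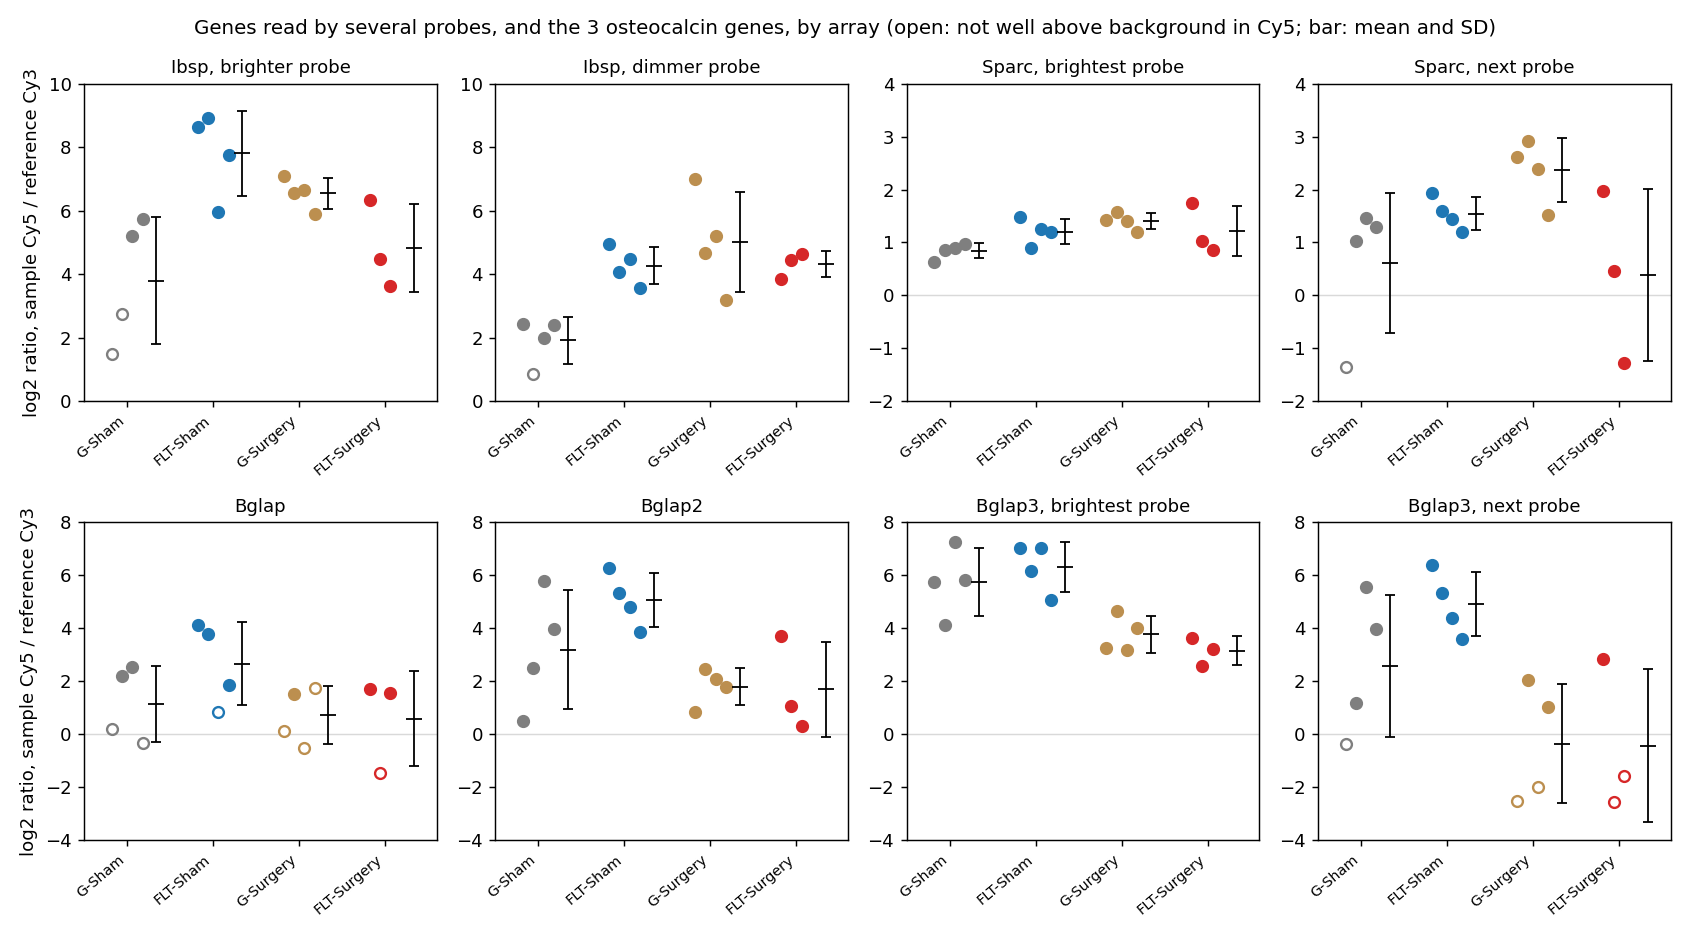
Log2 ratio of sample (Cy5) to reference (Cy3) on the y axis for both probes of Ibsp, the 2 brighter probes of Sparc and the 3 osteocalcin genes, by group on the x axis, 1 point per array, open where not above background in Cy5, with the mean and SD as a bar and a shared y axis per gene family. G-Sham is lowest at both Ibsp probes, and at 3 of the 4 osteocalcin panels all FLT-Surgery points lie below all FLT-Sham points.

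Osteocalcin is encoded in the mouse by Bglap and by the near-identical neighbours Bglap2 and Bglap3 on chromosome 3, and probes of such copies may bind each other's transcripts, so the values of single copies are uncertain. The Bglap probe read 0.20, 2.20, 2.54 and -0.34 in G-Sham, 4.14, 3.77, 0.85 and 1.86 in FLT-Sham, 0.12, 1.52, -0.51 and 1.73 in G-Surgery and 1.71, -1.48 and 1.54 in FLT-Surgery. All groups overlapped, and no comparison passed the cut-off. The difference farthest from 0 was -2.06 for FLT-Surgery minus FLT-Sham (SE 1.06, limma adjusted p = 0.256).

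The Bglap2 probe and the brightest Bglap3 probe were above background on all 15 arrays and are given for comparison. Bglap2 averaged 3.20 ± 2.24 in G-Sham, 5.07 ± 1.01 in FLT-Sham, 1.79 ± 0.69 in G-Surgery and 1.69 ± 1.79 in FLT-Surgery. Bglap3, by its brightest probe, averaged 5.74 ± 1.28, 6.32 ± 0.93, 3.78 ± 0.70 and 3.14 ± 0.55 in the same order. FLT-Surgery was lower than FLT-Sham by -3.38 at Bglap2 (SE 0.90, limma adjusted p = 0.144), by -3.18 at the brightest Bglap3 probe (SE 0.58, adjusted p = 0.103) and by -5.35 at the next one (SE 1.29, adjusted p = 0.136), all past the cut-off and without overlap, though Bglap2 overlapped by the Cy5 signal alone. The next Bglap3 probe was above background on 1 of 3 FLT-Surgery arrays, so -5.35 rests partly on background values. Within slide the differences were -5.58 and -0.96 at Bglap2, -4.14 and -2.43 at the brightest Bglap3 probe, and -8.45 and -1.59 at the next. The first slide held 1 FLT-Sham array and the second 1 FLT-Surgery array. On the ground the same contrast of defect against no defect gave -1.40, -1.96 and -2.94, none past it. The interaction values were -1.97, -1.22 and -2.41, none past it either (adjusted p between 0.442 and 0.525), so the defect's difference was not shown to depend on flight. Bglap2 missed the cut-off for FLT-Surgery against FLT-Sham when 1 of 4 arrays was omitted, FLT-Sham replicate 4 (-2.98) or 6 (-3.28) and FLT-Surgery replicate 3 (-3.06) or 5 (-2.68), the next Bglap3 probe without FLT-Surgery replicate 3 (-4.28) or 5 (-4.78), and the brightest Bglap3 probe kept it without any 1 array, from -3.60 to -2.89. With a second loess the brightest Bglap3 probe (-1.93, unadjusted p = 0.0112) and Bglap2 (-2.08) missed it. Bglap2 and the next Bglap3 probe also missed it with no filter on dim probes, at unadjusted p = 0.0144 and 0.0111, and with slide as a block, at -3.14 and -4.82.

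Alpl encodes the phosphatase that frees phosphate for mineral. It alone of the 10 genes reached an adjusted p of 0.05 with no array left out, where 1 of the 2 groups was at background. With FLT-Surgery replicate 1 or FLT-Sham replicate 8 left out Ibsp reached it too, each time in 1 difference given above and in the limma interaction (0.035 and 0.0304). G-Sham read -2.68, -1.45, 1.45 and 0.95, the first 2 below background. FLT-Sham read 2.86, 2.49, 1.76 and 1.92, all above background. G-Surgery read -1.70, -0.17, 0.06 and -2.46, of which 1 was above background, and FLT-Surgery read -1.22, -2.99 and -2.62, none above background.

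Alpl fell in FLT-Surgery relative to FLT-Sham, with a fitted difference of -4.53 (SE 0.53, unadjusted p = 3.27e-05, limma adjusted p = 0.0397). FLT-Surgery was at background, which leaves the fold a bound, and Alpl was at least 9.02-fold higher in FLT-Sham. The probe entered this test through the 4 FLT-Sham arrays alone. Its SE and p therefore rest on background values in FLT-Surgery, and the result stands as the bound only. Such bounds rest on Cy5 values alone, after loess and quantile scaling, and dye bias could shift them. It was the only one of the 7 genes tested to pass the cut-off, beside 6.65% of probes in either direction and 6.22% lower, and 1 of 16 probes (0.0836%) of the array at an adjusted p of 0.05 or less. That number of probes became 6141 without FLT-Sham replicate 8, 773 without FLT-Surgery replicate 1, and 0 or 1 without any other array. Its groups did not overlap, as for 10.6% of probes lower. The probe stayed past the cut-off without any 1 of the 7 arrays, from -5.06 to -4.18, but the adjusted p ranged from 0.00256 to 0.288 (0.0349 to 0.238 over the other settings) and exceeded 0.05 without FLT-Sham replicate 4 (0.114), 6 (0.165) or 9 (0.115) or FLT-Surgery replicate 3 (0.27) or 5 (0.288). In all 8 other settings that tested it the probe passed, at differences from -5.07 to -1.19, the smallest with normexp and -3.34 by the Cy5 signal alone. Within slide the difference was -5.66 and -3.28.

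In sham mice Alpl was higher after flight by 2.69 (SE 0.88, unadjusted p = 0.0144, limma adjusted p = 0.493), with no overlap between FLT-Sham and G-Sham and short of the cut-off. With slide as a block the value was 3.33 and passed it (unadjusted p = 0.00767), as it did by the Cy5 signal alone (2.06), with all 15 arrays in the fit (2.69), and without G-Sham replicate 4 (3.32) or 5 (3.15). With normexp it was 0.77. Between G-Surgery and G-Sham the difference was -0.64 (SE 0.99, adjusted p = 0.816), with the sign turned by slide as a block (0.37). FLT-Surgery against G-Surgery was not tested, since 1 of 7 arrays was above background. The groups overlapped, so no bound is given. The interaction was -3.90 (SE 1.24, unadjusted p = 0.00734, adjusted p = 0.178), past the cut-off, with FLT-Surgery at background. It missed the cut-off without G-Sham replicate 1 (-3.15) or 3 (-3.56), FLT-Sham replicate 4 (-3.70), 6 (-3.82) or 9 (-4.01), G-Surgery replicate 3 (-3.60) or 4 (-3.52), and on omission of FLT-Surgery replicate 3 (-3.54) or 5 (-3.73). It missed it in 3 of 7 other settings as well, with a second loess (-2.37), with normexp (-0.90) and with no filter on dim probes (-3.90).

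Omd, the proteoglycan osteomodulin, read 1.21 and 0.75 in FLT-Sham replicates 4 and 6, where it was above background, and -3.0 and -0.84 in the other 2 mice of that group. All other arrays lay between -3.61 and -1.61, below background. Omd was tested in no comparison. Only 2 FLT-Sham arrays were above background and FLT-Sham overlapped G-Sham and FLT-Surgery, so no bound is given. Runx2 averaged 1.59 ± 0.88 in G-Sham, 0.47 ± 1.59 in FLT-Sham, 1.45 ± 0.65 in G-Surgery and 1.48 ± 0.45 in FLT-Surgery, where it was above background on 0 of 3 arrays. Its difference between FLT-Sham and G-Sham was -1.12 (SE 0.80, limma adjusted p = 0.551). Sp7 lay between -0.94 and 1.33, below background throughout.

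Counted over the genes, FLT-Sham exceeded G-Sham in 5 of 8 with a median of 0.29, beside 61.1% of all probes and a median of 0.24. FLT-Surgery lay below G-Surgery in 5 of 6 with a median of -0.43, none past the cut-off under limma and none without overlap, beside 62.2% of probes lower, 3.14% past the cut-off and 13.6% without overlap. G-Surgery exceeded G-Sham in 4 of 8, with a median of 0.21 beside 0.14 and 59.9% of probes higher. The groups of Ibsp and Sparc did not overlap in the ratio, as for 5.31% of probes higher. By the Cy5 signal alone they overlapped at the brightest probe of each, while the dimmer Ibsp probe stayed without overlap. FLT-Surgery lay below FLT-Sham in 4 of 7, with a median of -0.41 beside -0.28 and 58.6% of probes lower. The interaction was below 0 in 6 of 8, with a median of -0.87 beside -0.37 and 60.8% of probes below 0, and Ibsp and Alpl passed the cut-off, beside 5.33% of 21777 probes and 4.97% below 0.

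**Figure D3:**
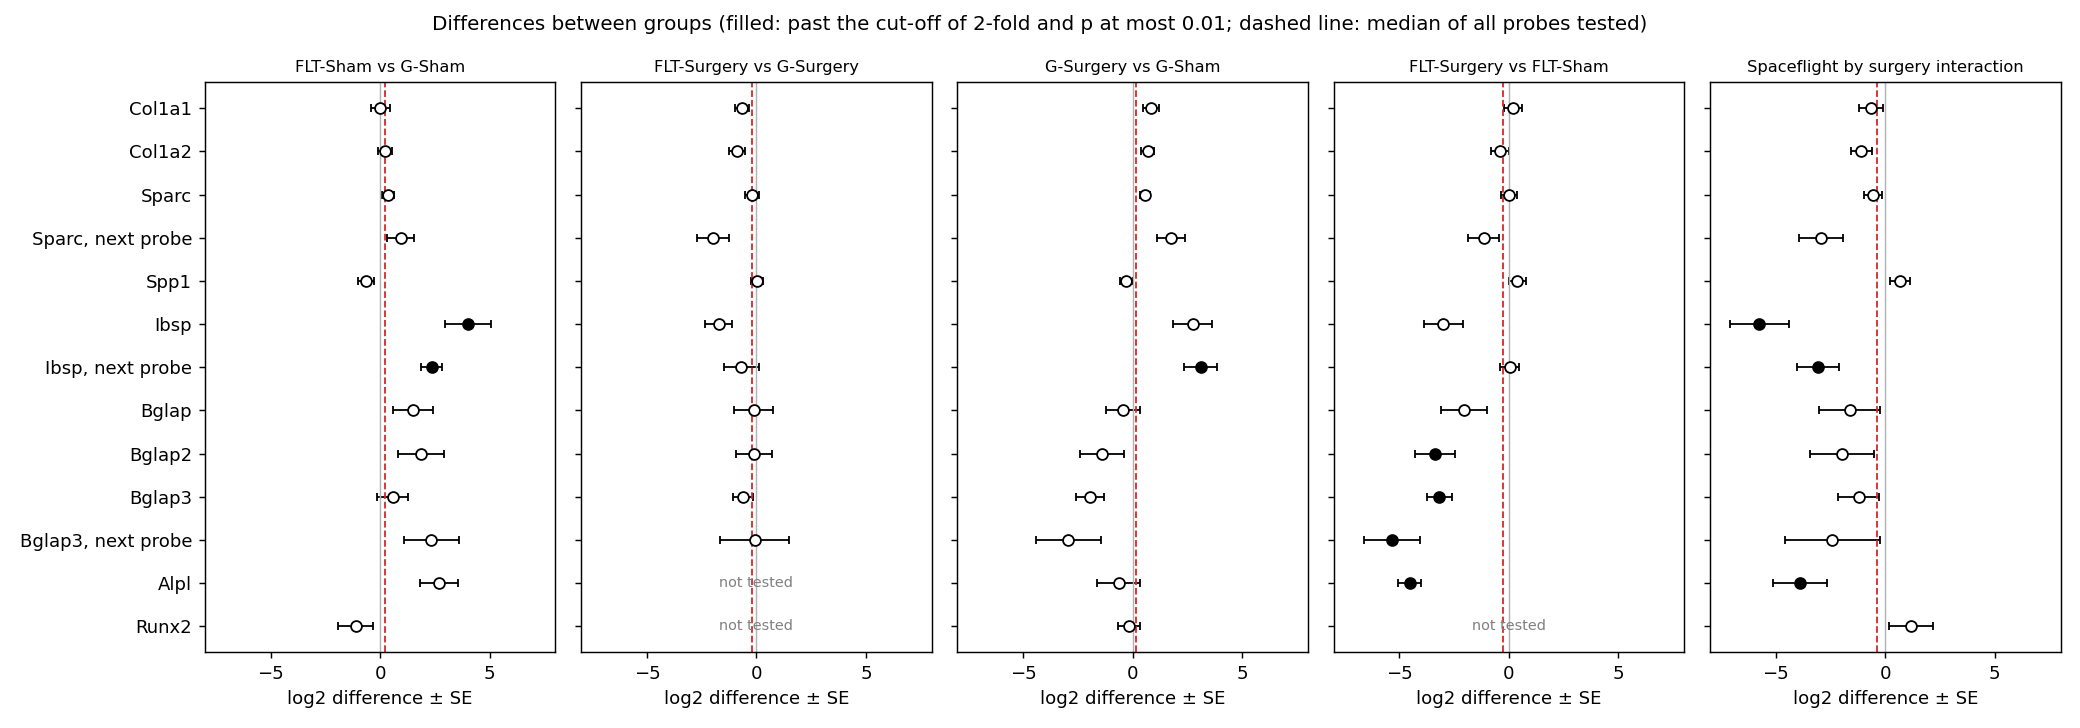
Log2 difference between groups with its standard error on the x axis, for each tested probe of the bone genes and the osteocalcin copies on the y axis, in the 4 comparisons and the interaction. Filled points passed the cut-off of 2-fold and an unadjusted p of at most 0.01, and the dashed line is the median of all probes tested. Points for Col1a1, Col1a2 and Spp1 stay near the dashed line, and those for Ibsp, Alpl and the osteocalcin copies lie farther out in at least 1 panel.

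RNA of a ground tissue cannot separate fewer cells of a type from less RNA per cell, and markers of other cells moved with several of these values. Between FLT-Sham and G-Sham, 5 of 6 adipocyte markers were tested and all 5 were higher after flight, 2 past the cut-off, with a median of 3.39. Their summed Cy5 signal ranged from 307 to 10100 in G-Sham and from 8900 to 51000 in FLT-Sham, and Lep was below background on all arrays. Plin1 was above background on 0 G-Sham and 3 FLT-Sham arrays, Adipoq on 1 and 3, and Cidec on 1 and 4. Such markers enter a test mainly through the higher group, so counts by direction and medians partly follow from the filter. No marker of another cell list passed the cut-off under limma, with 2 erythroid and 2 neutrophil markers at an unadjusted p of 0.05, beside 9.57% of all probes. Of the neutrophil markers 5 of 7 were higher, with a median of 1.79, and of the skeletal muscle markers 7 of 10, with a median of 0.59. The medians were 1.88 for osteoclast markers (2 of 3 higher), 1.62 for erythroid (3 of 4), 1.35 for cartilage (3 of 3), 1.27 for tendon and fibroblast (4 of 4) and 0.46 for B cell markers (4 of 5). Of the markers of osteocytes, the cells that osteoblasts become, 1 of 3 was higher, with a median of -0.25. The osteocyte markers tested, here and below, were Mepe, Fgf23 and Pdpn, while Dmp1, Sost and Phex were below background on all arrays.

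Between FLT-Surgery and FLT-Sham, where Alpl fell, 5 of 5 adipocyte markers tested were lower, 4 of them past the cut-off, with a median of -5.32 and a summed signal of 172 to 7090 in FLT-Surgery. Adipoq, Plin1 and Cidec were below background on every FLT-Surgery array and entered the test through FLT-Sham alone. All 4 erythroid markers tested were lower with 3 past the cut-off, 6 of 7 neutrophil markers with 3 past it, and 9 of 10 muscle markers with 2 past it. The tendon and fibroblast markers (4 of 4, 1 past the cut-off), cartilage (3 of 3), B cell (3 of 3) and osteoclast markers (2 of 3) were lower as well, while the osteocyte markers had a median of 0.82, with 1 of 3 lower.

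Between FLT-Surgery and G-Surgery, where collagen-processing genes described further on differed, markers of other cells were mostly lower too. The 3 cartilage markers tested were all lower, 1 past the cut-off, with a median of -3.50 and a summed signal of 777 to 1230 in FLT-Surgery. All 9 muscle markers (median -1.70), all 4 erythroid (-1.47), all 3 tendon and fibroblast (-1.71) and all 3 osteoclast markers tested (-0.90) were lower, as were 5 of 6 neutrophil markers (-1.79), 2 of 2 adipocyte (-1.96), 2 of 2 B cell (-0.78) and 2 of 3 osteocyte markers (-0.71). The cartilage gene was the 1 marker past the cut-off under limma, beside 3.14% of all probes.

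Between G-Surgery and G-Sham, 4 of 7 cartilage markers were tested and all were higher, 1 past the cut-off, with a median of 2.46. Their summed signal ranged from 685 to 1030 in G-Sham and from 1910 to 22000 in G-Surgery, and Matn3, Col10a1 and Sox9 were below background on all arrays. Col2a1 was above background on 0 G-Sham and 4 G-Surgery arrays, so it entered the test through G-Surgery alone. The osteoclast markers had a median of 1.87 (3 of 3 higher), the osteocyte markers 0.46 (2 of 3 higher, 1 past the cut-off) and the erythroid markers -1.01 (4 of 4 lower). In the interaction all 5 adipocyte markers tested lay below 0 (median -4.23), as did all 4 cartilage (-4.24) and all 4 erythroid markers (-2.74). So did 6 of 7 neutrophil (-2.61), 3 of 3 osteoclast (-2.78) and 9 of 10 muscle markers (-2.29). Below 0 too were 4 of 4 tendon and fibroblast (-2.14), 4 of 5 B cell (-0.90) and 2 of 3 osteocyte markers (-0.54). Past the cut-off were 2 adipocyte, 2 neutrophil, 1 cartilage and 1 erythroid marker, beside 5.33% of all probes. The part of these cells in the differences of Ibsp, Alpl and the collagen-processing genes was not tested.

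A further 47 genes of bone formation, in 5 lists, were set beside the 10, and the number tested was 34 to 38 by comparison. In FLT-Sham against G-Sham 26 of 38 were higher and none passed the cut-off under limma (4 at an unadjusted p of 0.05, beside 9.57% of all probes), with a median of 0.46, beside 61.1% of all probes higher, 2% past the cut-off and a median of 0.24. In FLT-Surgery against G-Surgery 29 of 34 were lower with a median of -0.86, beside 62.2% of all probes lower and a median of -0.20 that turned to 0.30 with a second loess. The 3 that passed it, beside 3.14% of all probes, were all in the collagen synthesis and processing list. These were Serpinh1 at -1.83 (SE 0.48), Plod2, a lysyl hydroxylase of collagen, and P4ha1, a subunit of prolyl 4-hydroxylase. Plod2 and P4ha1 were below background on every FLT-Surgery array and entered the test through G-Surgery alone, so their calls rest on background values. By the bound Plod2 was at least 3.34-fold higher in G-Surgery, and for P4ha1 the bound was 1.94-fold. These 3 calls were fragile. Serpinh1 missed the cut-off when G-Surgery replicate 1 (-1.75), 3 (-1.60) or 4 (-1.92) was omitted, and also on omission of FLT-Surgery replicate 3 (-1.55) or 5 (-1.63). Plod2 kept it in 1 of 7 omissions (values from -2.42 to -1.67), that of G-Surgery replicate 5, and P4ha1, still tested in 4 of 7, missed it without FLT-Surgery replicate 3 (-1.16) or 5 (-1.12). In the other settings Serpinh1 passed in 6 of 10 (-2.10 to -1.37), Plod2 in 3 of 9 (-2.32 to -0.52) and P4ha1 in 3 of 9 (-1.50 to 0.11).

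In G-Surgery against G-Sham 29 of 36 related genes were higher with a median of 0.60, and 5 passed the cut-off, beside 59.9% of all probes higher, a median of 0.14 and 2.59% past the cut-off. Serpinh1 was higher by 1.75 (SE 0.36), and Plod2, below background on every G-Sham array, was at least 8.17-fold higher in G-Surgery. Plod2 entered this test through G-Surgery alone. Of 8 accessory matrix genes tested 3 passed, Col5a2 at 3.65 (SE 0.73), Col3a1 at 2.22 (SE 0.56) and Fn1, fibronectin, at 1.44 (SE 0.29), with adjusted p between 0.201 and 0.297 over the 5. Col5a2 was above background on only 1 G-Sham array, so its value rests partly on background. All but Col3a1 stayed past the cut-off without any 1 array, and Col3a1 missed it without G-Sham replicate 3 (2.03) or G-Surgery replicate 3 (1.98) or 4 (2.21). In the other settings Col3a1, Serpinh1 and Fn1 passed in 10 of 10, and Plod2 and Col5a2 in 8 of 9, with values of 0.75 and 0.77 with normexp, where they missed. Serpinh1 read -1.21 to -0.27 in G-Sham and 0.26 to 1.56 in G-Surgery, and -1.51 to 0.00 in FLT-Surgery.

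In FLT-Surgery against FLT-Sham 24 of 38 were lower with a median of -0.52, beside 58.6% of all probes and a median of -0.28. The 3 that passed, beside 6.65% of all probes, stood 1 each in the mineralisation, lineage and accessory matrix lists. They were the phosphate transporter gene Slc20a2, the parathyroid hormone receptor gene Pth1r, and Tnn, tenascin-W. All 3 were below background on every FLT-Surgery array and above it on all FLT-Sham arrays, with bounds of at least 7.12-fold for Slc20a2, at least 7.99-fold for Pth1r and at least 5.97-fold for Tnn in favour of FLT-Sham. All 3 entered the test through FLT-Sham alone, so their calls rest on background values in FLT-Surgery. Each missed the cut-off without FLT-Surgery replicate 3 or 5, at -3.59 and -2.86 for Slc20a2, -4.08 and -3.55 for Pth1r, and -3.44 and -4.03 for Tnn. With normexp all 3 missed it, at -0.65, -1.64 and -1.49, Slc20a2 also missed it with slide as a block (-3.26) and Tnn with all 15 arrays in the fit (-4.15).

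In the interaction 32 of 38 lay below 0 with a median of -1.29, beside 60.8% of all probes and a median of -0.37 that turned to 0.50 with a second loess. The 5 that passed, beside 5.33% of all probes, were Col5a2 (-4.33), Fap (-4.08), Plod2 (-2.87), Serpinh1 (-2.33) and Loxl1 (-1.22), with limma adjusted p between 0.171 and 0.175. In FLT-Surgery Col5a2 was above background on 1 array and Plod2 on 0, so their values rest partly on background. Serpinh1 stayed past the cut-off without any 1 of the 15 arrays (-2.80 to -2.05), Col5a2 in 14 of 15 (not without FLT-Surgery replicate 5, -3.36), Plod2 in 14 (not without FLT-Surgery replicate 1, -2.63), Loxl1 in 8 (-1.35 to -1.10) and Fap in 6 (-5.06 to -3.51). In the other settings Serpinh1 passed in 7 of 8 (-2.94 to -1.58), Fap in 6 of 8 (-4.69 to -2.46), Col5a2 in 5 of 7 (-4.94 to -0.73), Loxl1 in 4 of 8 (-1.83 to 0.21) and Plod2 in 3 of 7 (-3.48 to -0.21). The 4 transcription factors tested (of 7 listed) had medians between -0.15 and 0.25 in the 5 sets and none passed.

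**Figure D4:**
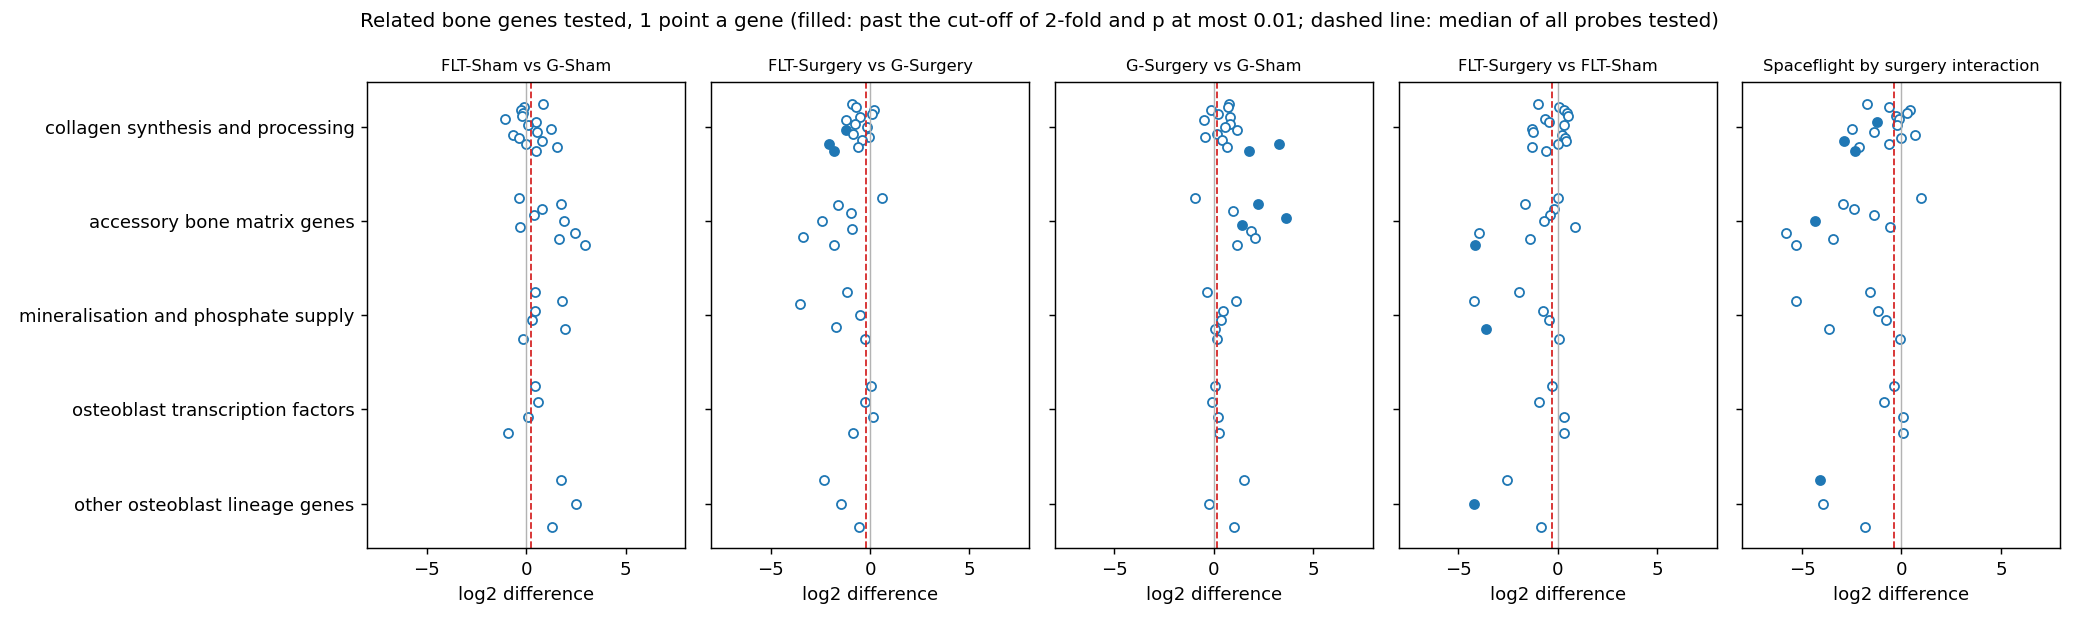
Log2 difference between groups on the x axis for the related bone genes tested, 1 point a gene, by list on the y axis, in the 4 comparisons and the interaction. Filled points passed the cut-off and the dashed line is the median of all probes tested. After the defect most points lie left of 0 for flight against ground, with the 3 filled points in the collagen list, and for the defect on the ground most lie right of 0.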

How the data were processed

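The arrays were 2-colour Agilent mouse arrays, 1 per mouse, sample in Cy5 and reference in Cy3. Groups and replicate numbers came from the labels. The authors deposited scanner output of Feature Extraction 12.0, the version in the submitters' processing notes, which gives the intensity of each channel, background-subtracted and scaled by linear and LOWESS dye factors, and their log10 ratio. The series table repeats that log10 value, as deposited, to within 0.005. On each array the LOWESS factor followed the signal (Spearman 0.894 to 0.992), so no further loess was applied in the main setting.

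The log10 ratio was turned to log2, outlier spots were set missing, spots of a probe were averaged (59305 spots, 55681 probes), and limma 3.58.1 (R 4.3.3) tested, over the 2 groups of a comparison, those probes whose Cy5 signal was well above background on 3 or more of its arrays, with Benjamini-Hochberg adjustment over all probes tested. The interaction used all 15 arrays. The probe with the highest mean Cy5 signal stands for a gene. Related genes are named where past the cut-off, up to 3 by size in each list, and nearest patterns are the 5 highest correlations. Lower bounds compare the brighter group's mean with a floor, which on an array is its dimmest signal well above background or the probe's own signal if higher. Symbols came from RefSeq (GRCm38.p6), while the array design is annotated to another build, and no probe position is given. The 10 genes and all lists were chosen with earlier results of these data known. Alternatives were another loess, median centring, normexp (offset 50, on median signals, since mean signals were not held), Cy5 alone, filters, slide, outlier spots, all arrays in the fit, the replicate number as a block, and the omission of each array. Known changes in simulated data were used to check the model. Signal above background and the number of arrays limit precision. Figures were drawn with matplotlib.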

Additional observations from a re-analysis of the deposited data

Results flagged for a closer look

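Col1a1 in G-Sham replicate 4 read 2.61, away from the other 3 ground sham mice at 1.37 to 1.41. It was 1 of 33 groups of 4 arrays with a value that far out, where about 1.65 would be so by chance, and that array was alone on its slide. The flight effect after the defect differed from that in sham mice by -5.75 at the brighter Ibsp probe (SE 1.35, limma adjusted p = 0.167), by -3.06 at the dimmer Ibsp probe (SE 0.95, adjusted p = 0.176) and by -3.90 at Alpl (SE 1.24, adjusted p = 0.178). FLT-Surgery was at background on every array for Alpl.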

How the results depend on the processing

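The number of the 10 genes past the cut-off stayed small under every alternative. For FLT-Sham against G-Sham it was 1, then 0 with a filter asking for signal in both Cy5 and Cy3 on every array, 2 with slide as a block, 2 when all 15 arrays were fitted (Ibsp and Alpl in both), and 0 to 2 with an array left out. For FLT-Surgery against G-Surgery it was 0 under every alternative but the omission of an array (0 to 2). For G-Surgery against G-Sham it was 0, then 1 with normexp (Col1a2), 1 with slide blocked (Col1a1), 1 when all arrays were fitted (Ibsp), and 0 to 2 with an array left out. For FLT-Surgery against FLT-Sham it was 1, then 0 with that filter on both channels, 2 when all arrays were fitted (Alpl and Ibsp), and 1 to 2 with an array left out. For the interaction it was 2, then 1 with the second loess, 1 with normexp, 1 with no filter (Ibsp each time), 0 with the filter on both channels, and 1 to 3 with an array left out. The filter on both channels removes the Alpl probe and the brighter Ibsp probe from the test. Alpl, and in comparisons with G-Sham the brighter Ibsp probe, already lacked Cy5 signal above background on some arrays. The cause of the other changes was not tested.

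Values that turned their sign were all short of the cut-off, apart from P4ha1 in FLT-Surgery against G-Surgery and Loxl1 in the interaction, which passed it and read 0.11 and 0.21 with normexp. In FLT-Sham against G-Sham, Col1a1 was 0.34 median-centred and 0.33 with slide as a block, and with normexp Col1a2 was -0.44 and Sparc -0.35. In FLT-Surgery against G-Surgery, Bglap was 0.24 with the second loess, 0.03 with normexp and 0.51 by Cy5 alone, Sparc was 0.08 with normexp and 0.25 by Cy5 alone, Spp1 was -0.25 median-centred and the dimmer Ibsp probe 0.35 with the second loess. In G-Surgery against G-Sham, Alpl was 0.37 with slide as a block. In FLT-Surgery against FLT-Sham, Sparc was -0.05 with the second loess and -0.53 median-centred, Col1a1 -0.35 and Spp1 -0.16 median-centred, Col1a2 0.63 with normexp, and the dimmer Ibsp probe -0.49 median-centred, -0.42 with normexp and -0.30 with slide as a block. In the interaction Sparc was 0.43 with normexp and 0.06 by Cy5 alone. Leaving out an array turned Col1a1 (-0.17 to 0.30) in FLT-Sham against G-Sham, Bglap (-0.53 to 0.91) and Spp1 (-0.17 to 0.14) in FLT-Surgery against G-Surgery, Runx2 (-0.57 to 0.11) in G-Surgery against G-Sham, and Col1a1 (-0.05 to 0.34), Sparc (-0.27 to 0.18) and the dimmer Ibsp probe (-0.19 to 0.27) in FLT-Surgery against FLT-Sham.

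The replicate numbers did not pair the mice, since same-numbered arrays correlated at -0.41, -0.18 and 0.22 between the surgery groups and at -0.13 to 0.34 between the ground groups. With the replicate number as a block the count was 0 in both comparisons that share numbers, and over all probes the calls went from 519 to 215 for FLT-Surgery against G-Surgery, where Serpinh1, Plod2 and P4ha1 missed the cut-off, and from 458 to 389 for G-Surgery against G-Sham. No paired analysis was possible for the other comparisons because those groups share fewer than 2 numbers.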
